A study of Mus musculus with 10 samples.

Results

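Toll-like receptor genes were examined in CX3CR1-GFP+ lamina propria macrophages of the mouse small intestine, using a deposited table in which 10 of the 17279 listed genes are the members Tlr1, Tlr2, Tlr3, Tlr4, Tlr5, Tlr6, Tlr7, Tlr8, Tlr9 and Tlr13. Members were taken by gene symbol, with no threshold on their values, and all 10 passed the filter on low counts. The table holds 5 libraries from sham-operated mice and 5 from mice with permanent middle cerebral artery occlusion (pMCAO), an experimental stroke without reperfusion, all of genotype C57BL6/J and all collected 24 h after surgery. Macrophages were sorted by flow cytometry from the mucosa of the whole small intestine as GFP+ cells. The genotype label does not name the GFP reporter allele that both groups need for this sort, and age and sex are not in the labels. The library names mark replicate 1 of each group as a pool. GEO's titles call the libraries biological replicates.

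Total counts were 18894151 to 60665972 per library in the sham group (median 33913980) and 6430643 to 28672285 in the pMCAO group (median 11605371), so values of the pMCAO group rest on fewer reads. Member counts lay between 99, for Tlr5 in pMCAO 1, and 11087, for Tlr7 in sham 5. Levels are given as CPM, which are counts scaled to a common library size. All 10 macrophage markers were detected, with Cx3cr1 at 98.8 to 224 CPM in sham and 108 to 215 CPM in pMCAO libraries. Their summed level was 2891 to 7726 CPM in sham and 4149 to 8972 CPM in pMCAO libraries. Markers of B and plasma cells were also present, at a summed 823 to 24738 CPM in sham and 1128 to 27276 CPM in pMCAO libraries. Xist, the RNA that coats an inactive X chromosome, reached 1755 CPM in sham 5 and 4460 CPM in pMCAO 4, against 1.39 to 4.92 CPM in the other 8 libraries. Results that rest on sham 5 and pMCAO 4 are given with and without them. In these bulk libraries, fewer cells of a type and less RNA per cell cannot be told apart.

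Toll-like receptors are membrane proteins of innate immune cells that bind conserved parts of microbes or displaced nucleic acids through leucine-rich repeats, and signal through a cytoplasmic TIR domain. TLR1, TLR2, TLR4, TLR5 and TLR6 act mainly at the cell surface on lipopeptides, lipopolysaccharide and flagellin. By contrast, TLR3, TLR7, TLR9 and TLR13 act in endosomes on RNA or DNA, and TLR8 is endosomal too. Most recruit the adaptor MyD88, whereas TLR3 uses TRIF, encoded by Ticam1, and TLR4 uses both. In the gut wall, macrophages sit directly beneath an epithelium that faces the microbiota, and their responses to bacterial ligands are known to be restrained.

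Each member occupies 1 locus of the mouse genome (GRCm38, GENCODE M21 annotation). Among the surface receptors, Tlr1 lies on chromosome 5 from 64924679 to 64933563 and Tlr6 on the same strand from 64952031 to 64960097, with 18467 bases between them. Tlr2 lies on chromosome 3 from 83836272 to 83841767, Tlr4 on chromosome 4 from 66827584 to 66930284 and Tlr5 on chromosome 1 from 182954788 to 182976044. Among the endosomal receptors, Tlr3 lies on chromosome 8 from 45395665 to 45411080 and Tlr9 on chromosome 9 from 106222598 to 106226883. The other 3 are X-linked: Tlr8 from 167242696 to 167264329 and Tlr7 from 167304929 to 167330558 are neighbours, and Tlr13 lies apart from 106143204 to 106160493. The coding sequence of Tlr1, Tlr2 and Tlr6 lies in 1 exon, whereas that of Tlr3 is spread over 4 exons, of which the largest holds 68.3%. The Tlr3 locus overlaps an antisense gene, Gm45542 (chromosome 8 from 45410063 to 45410760), which has no row in the table. The strand setting of counting is not given in the sources used here, so reads of Tlr3 and of this antisense gene cannot be told apart in their overlap.

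Tlr1 and Tlr6 are close paralogs whose products each pair with TLR2, and the counts of these genes depend on how reads from their shared sequence were assigned. The longest stretch of coding sequence that is identical in both runs over 229 bases, more than the 100 bases of a single read. Of all 100-base windows of coding sequence, 259 of 2286 (11.3%) in Tlr1 and 259 of 2319 (11.2%) in Tlr6 occur in the other gene, whereas no other pair of members shares more than 16 bases in a row. The sequences below show this stretch with 35 bases on either side, 5′ to 3′ on the coding strand, and capitals mark the 2 bases at which the genes differ. They lie within the coding exon of Tlr1 at chr5:64925502-64925800 (minus strand) and of Tlr6 at chr5:64953793-64954091 (minus strand).
Tlr1: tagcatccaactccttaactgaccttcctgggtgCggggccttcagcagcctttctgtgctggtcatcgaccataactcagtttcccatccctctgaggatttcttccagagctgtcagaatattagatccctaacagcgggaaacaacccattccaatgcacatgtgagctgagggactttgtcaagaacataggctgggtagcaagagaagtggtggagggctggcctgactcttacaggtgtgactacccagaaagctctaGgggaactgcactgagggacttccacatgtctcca
Tlr6: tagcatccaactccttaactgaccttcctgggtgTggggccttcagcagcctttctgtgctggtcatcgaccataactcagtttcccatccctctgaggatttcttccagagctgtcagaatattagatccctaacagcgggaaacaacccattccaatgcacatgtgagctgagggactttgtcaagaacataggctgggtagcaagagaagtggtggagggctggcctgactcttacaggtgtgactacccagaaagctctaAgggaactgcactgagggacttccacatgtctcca
The table does not show how reads from such a stretch were divided, so the values of Tlr1 and Tlr6 are uncertain to that extent.

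Comparison of pMCAO with sham macrophages asked whether stroke had altered receptor transcripts 24 h later. Levels are CPM after TMM scaling, which corrects library totals for differences in composition, unless stated otherwise. A gene was called at a false discovery rate (FDR) of at most 0.05 if its log2 fold change was also at least 1 in either direction. No member was called by the quasi-likelihood test of edgeR, and 0 of all 16949 genes tested were (0%). At an unadjusted p under 0.05, 1 member was higher after pMCAO, Tlr3, against 799 of all genes (4.71%) in either direction and 383 (2.26%) in the higher direction. DESeq2, the other count test run, called 2 of all genes (0.0118%), neither of them a member, and had 1011 genes (5.96%) and again 1 member under this unadjusted limit. The log2 fold change was above 0 for 7 of 10 members, against 49.4% of all genes, with a median of 0.17 for the members and -0.0059 for all genes.

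**Figure D1:**
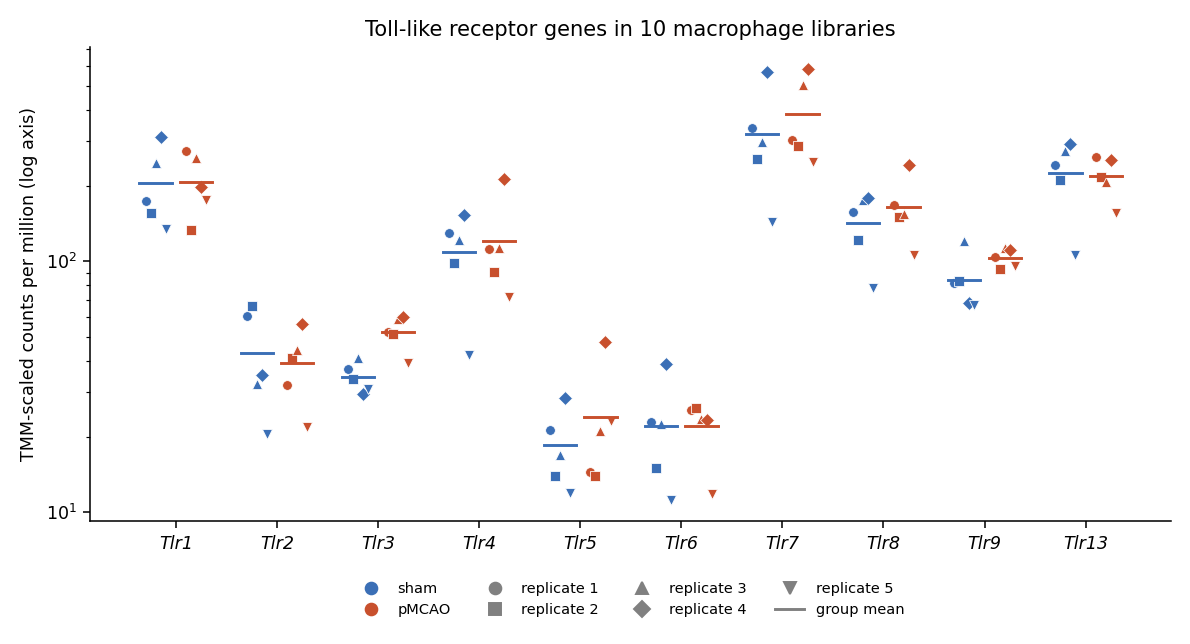
Level of each Toll-like receptor gene in 10 macrophage libraries, in TMM-scaled CPM on a log axis. Each point is 1 library, marked by replicate, and lines are group means; the groups overlap for all 10 genes, and 4 of 5 pMCAO libraries lie above the highest sham library for Tlr3.

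The endosomal receptors were led by Tlr7, and the largest change among all 10 members was that of Tlr3. Tlr3 encodes a receptor for double-stranded RNA. Its level was 37.2, 34.1, 40.9, 29.6 and 30.9 CPM in sham 1 to 5 and 52.2, 51.4, 58.8, 60.0 and 39.1 CPM in pMCAO 1 to 5. Thus 4 of 5 pMCAO libraries lay above every sham library, and pMCAO 5 lay between sham 1 and sham 3. Tlr3 had a log2 fold change of 0.60 (SE 0.17), which is 1.51-fold with a 95% interval from 1.18 to 1.94, at an unadjusted p of 0.00368 in the edgeR test and an FDR of 0.922. Under scaling to total counts alone, Tlr3 was at 24.9 to 41.8 CPM in sham and 44.3 to 63.0 CPM in pMCAO libraries, and the groups did not overlap. Groups separated in either direction for 159 of all 16949 genes (0.938%) on that scale, 58 of them higher after pMCAO (0.342%). On the TMM scale, where no member separated, they did so for 168 genes (0.991%), 77 of them higher (0.454%).

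The difference in Tlr3 kept its direction under all 21 alternatives to the test, filter, scaling or set of libraries, with log2 fold changes of 0.47 to 0.68. Its unadjusted p was under 0.05 in all 21, from 0.000919 to 0.0265, and its FDR was 0.282 to 1.00. Without sham 5 and pMCAO 4, the log2 fold change of Tlr3 was 0.50, and without both pooled libraries it was 0.63. Type 1 conventional dendritic cells are known for high Tlr3, and their markers overlapped between the groups. Xcr1 was at 3.36 to 4.78 CPM in sham and 2.53 to 6.65 CPM in pMCAO libraries, with 3 of 5 pMCAO libraries above every sham library. Clec9a was at 14.4 to 39.0 CPM in sham and 12.7 to 42.9 CPM in pMCAO libraries. Tlr3 was highest in pMCAO 3 and pMCAO 4, Xcr1 in pMCAO 2 and Clec9a in pMCAO 5. The part of such cells in the level of Tlr3 was not tested.

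Tlr9, the receptor for unmethylated CpG DNA, was the other endosomal gene with a narrow spread. Its level was 82.2, 83.1, 121, 68.2 and 66.9 CPM in sham 1 to 5 and 104, 93.0, 113, 110.5 and 95.4 CPM in pMCAO 1 to 5. All 5 pMCAO libraries lay above the sham mean of 84.2 ± 21.7 CPM (SD, n = 5), and sham 3 lay above every pMCAO library. The log2 fold change of 0.29 (SE 0.18) did not pass the edgeR test (FDR = 0.922), and its 95% interval ran from -0.09 to 0.68. Without sham replicate 3 its unadjusted p was 0.0121 in the edgeR test, the only 1 of 21 alternatives in which it was under 0.05. B cells and plasmacytoid dendritic cells also express Tlr9 and Tlr7. Summed B and plasma cell markers were highest in sham 2 (24738 CPM) and pMCAO 2 (27276 CPM), where Tlr9 was at 83.1 and 93.0 CPM. Plasmacytoid dendritic cell markers summed to 311 to 750 CPM in sham and 362 to 695 CPM in pMCAO libraries. The part of either cell type in the levels of Tlr9 and Tlr7 was not tested.

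Tlr7, which encodes a receptor for single-stranded RNA, and its X-linked neighbour Tlr8 varied more between libraries of a group than between groups. Tlr7 was at 340, 256, 299, 569 and 143 CPM in sham 1 to 5 and at 304, 287, 504, 584 and 248 CPM in pMCAO 1 to 5. Tlr8 was at 157, 122, 175, 179 and 78.0 CPM in the sham and at 168, 151, 154, 242 and 106 CPM in the pMCAO libraries. For both genes sham 5 was the lowest of all 10 libraries and pMCAO 4 the highest. The log2 fold change was 0.26 (SE 0.34) for Tlr7 and 0.21 (SE 0.26) for Tlr8, and without sham 5 and pMCAO 4 it was -0.13 for each. Tlr13, which in mice encodes a receptor for bacterial ribosomal RNA, was at 243, 210, 276, 294 and 106 CPM in the sham libraries. In the pMCAO libraries Tlr13 was at 261, 216, 206, 253 and 156 CPM, all within the range of the sham group. Its log2 fold change was -0.05 with a 95% interval from -0.60 to 0.50.

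The surface receptors showed no gene with an unadjusted p under 0.05, and each of them overlapped widely between groups. Tlr2, whose product pairs with TLR1 or TLR6 to bind bacterial lipopeptides, was at 60.6, 66.4, 32.4, 35.0 and 20.4 CPM in sham 1 to 5 and at 32.2, 41.3, 44.4, 56.4 and 21.8 CPM in pMCAO 1 to 5. Tlr1, the partner for triacylated lipopeptides, was at 174, 155, 246, 312 and 134 CPM in the sham and at 275, 133, 257, 197 and 175 CPM in the pMCAO libraries. Tlr6, the partner for diacylated lipopeptides, was at 22.8, 15.0, 22.4, 38.9 and 11.2 CPM in the sham and at 25.5, 26.0, 23.4, 23.2 and 11.8 CPM in the pMCAO libraries. Group means were close for all 3, at 43.0 ± 19.7 against 39.2 ± 13.01 CPM for Tlr2, 204 ± 73.4 against 207 ± 58.5 CPM for Tlr1 and 22.1 ± 10.6 against 22.0 ± 5.81 CPM for Tlr6 (SD, n = 5). The 95% intervals of their log2 fold changes were -0.86 to 0.59 for Tlr2, -0.55 to 0.59 for Tlr1 and -0.72 to 0.71 for Tlr6. Changes within these intervals remain compatible with the values of these libraries.

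Tlr4, the receptor for lipopolysaccharide, was at 129, 98.2, 122, 152 and 42.1 CPM in sham 1 to 5 and at 112, 90.8, 112, 213 and 72.1 CPM in pMCAO 1 to 5. Its lowest and highest values were again in sham 5 and pMCAO 4. The log2 fold change of Tlr4 was 0.14 (SE 0.34) with all libraries and -0.38 without these. Tlr5, the receptor for flagellin, was the lowest member per length, at 21.2, 13.9, 16.9, 28.6 and 11.9 CPM in the sham and at 14.5, 13.9, 21.0, 47.6 and 23.1 CPM in the pMCAO libraries. The library pMCAO 4 alone exceeded the highest sham library. The log2 fold change of Tlr5 was 0.38 (SE 0.36), between -0.03 and 0.58 when 1 library was left out, and -0.15 without sham 5 and pMCAO 4.

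The direction of Tlr1, Tlr4, Tlr5, Tlr7 and Tlr8, 5 of the 10 members, changed when sham 5 and pMCAO 4 were left out. Without both, 2 of 10 members had a log2 fold change above 0, Tlr3 and Tlr9, and the median was -0.14, against 7 members and 0.17 with all libraries. With these libraries left out no member but Tlr3 had an unadjusted p under 0.05.

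**Figure D2:**
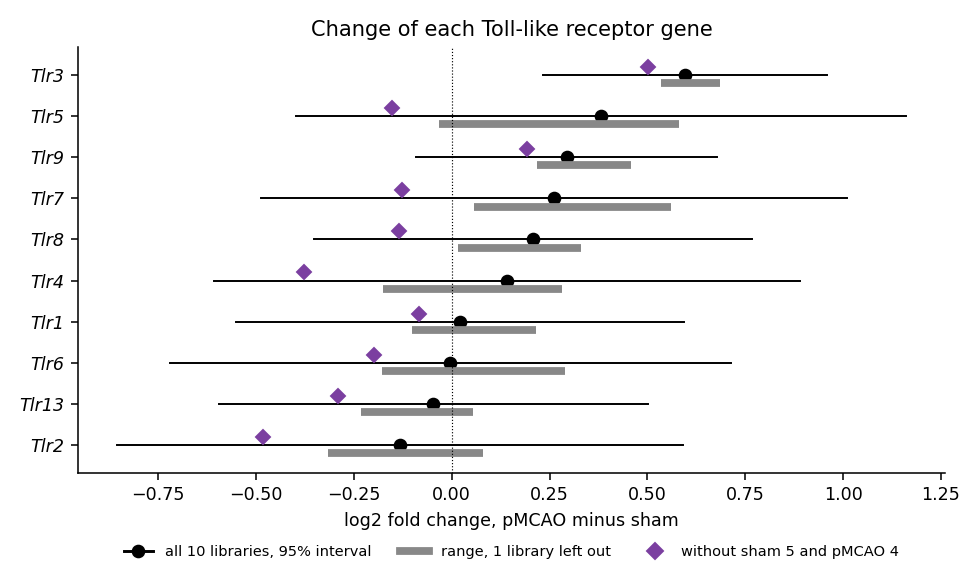
Log2 fold change of pMCAO over sham for each Toll-like receptor gene. Points and lines are the edgeR estimate from all 10 libraries with its 95% interval, grey bars the range when 1 library was left out, and diamonds the value without sham 5 and pMCAO 4; the interval of Tlr3 alone lies above 0.

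The table also lists Tlr11 and Tlr12, which are not among the members. Tlr11 was at 14.7 ± 3.08 CPM in sham and 23.4 ± 10.9 CPM in pMCAO libraries (SD, n = 5), with an unadjusted p of 0.0471 and an FDR of 0.922 in the edgeR test. Its log2 fold change was 0.67 (SE 0.30), and 4 of 5 pMCAO libraries lay above the highest sham library. Tlr12 was at 88.7 ± 35.9 and 102 ± 42.3 CPM, with an FDR of 0.953 in the edgeR test.

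To compare receptors with one another, TMM-scaled CPM were divided by the length of the longest transcript in kilobases. By the mean of log2 levels over 10 libraries the order was Tlr7, Tlr1, Tlr13, Tlr8, Tlr9, Tlr4, Tlr2, Tlr3, Tlr6 and Tlr5. Tlr7 stood at a mean of 82.5 CPM per kb in sham and 98.9 CPM per kb in pMCAO libraries, and Tlr5 at 4.85 and 6.30 CPM per kb. Between them, Tlr1 had means of 67.5 and 68.5, Tlr13 of 55.6 and 53.8, and Tlr8 of 41.4 and 47.8 CPM per kb in sham and pMCAO libraries. Thus 4 genes made up the upper end, 3 of them X-linked endosomal receptors. Tlr9 (24.2 and 29.7 CPM per kb), Tlr4 (26.7 and 29.5), Tlr2 (14.3 and 13.03), Tlr3 (7.85 and 11.9) and Tlr6 (6.01 and 5.99) followed.

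Neighbours in this order were separated in every library only at 2 steps, Tlr8 over Tlr9 and Tlr4 over Tlr2, each in 10 of 10 libraries. The step from Tlr4 to Tlr2 was a difference of 1.03 ± 0.50 in log2 level per length and that from Tlr8 to Tlr9 was 0.69 ± 0.39 (SD, n = 10). Tlr13 exceeded Tlr8, and Tlr3 exceeded Tlr6, in 9 of 10 libraries. Tlr9 and Tlr4 differed by 0.03 ± 0.57 and stood in this order in 6 of 10 libraries, so their levels did not differ beyond their spread. The same holds for Tlr7 and Tlr1, Tlr1 and Tlr13, Tlr2 and Tlr3, and Tlr6 and Tlr5, each in this order in 7 of 10 libraries and apart by less than 1 SD. With the mean length of all transcripts in place of the longest, 6 of the 9 neighbouring pairs kept their order, and Tlr13 stood above Tlr1.

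**Figure D3:**
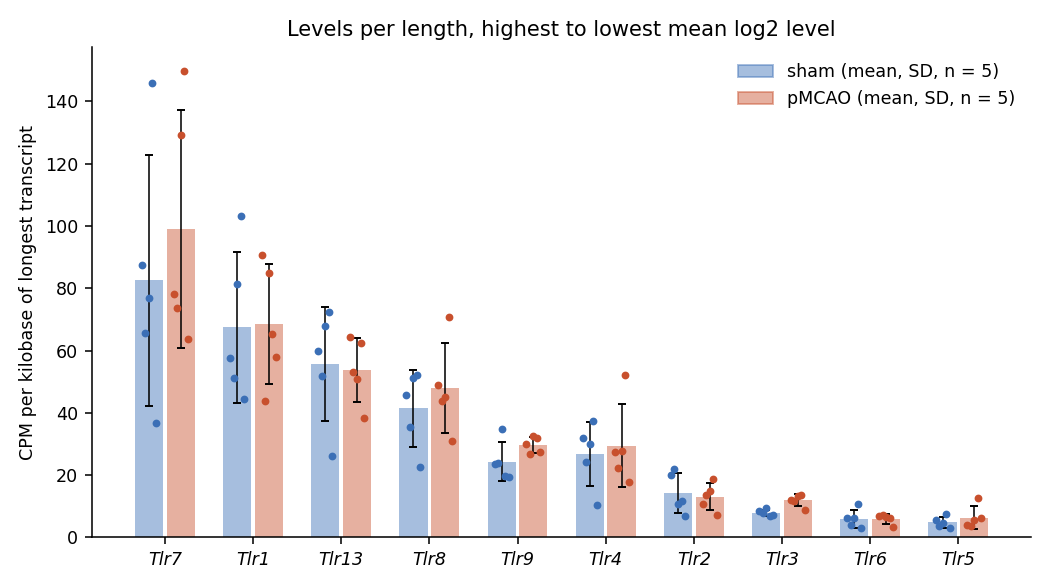
Level per length of each Toll-like receptor gene, in TMM-scaled CPM per kilobase of the longest transcript, from the highest to the lowest mean log2 level. Bars are means, error bars SD over 5 libraries of a group and points single libraries; Tlr7 stands at 82.5 in sham and 98.9 in pMCAO libraries, and Tlr5 at 4.85 and 6.30.

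The 5 endosomal receptors together made up 62.3% to 65.0% of the summed level per length of all 10 members in sham libraries (median 63.7%) and 62.5% to 69.8% in pMCAO libraries (median 66.1%). The 3 X-linked genes alone made up 47.7% to 57.9% in sham and 50.8% to 58.5% in pMCAO libraries. These shares are within 1 library and do not depend on its scaling, and they overlapped between groups. For the neighbouring genes Tlr7 and Tlr8, the ratio of Tlr7 to Tlr8 in CPM, not divided by length, was 1.71 to 3.18 in sham and 1.81 to 3.27 in pMCAO libraries. On the same scale the ratio of Tlr1 to Tlr6 was 7.63 to 12.0 in sham and 5.10 to 14.8 in pMCAO libraries. The reads of their shared stretch add an unknown error to it.

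The receptors also varied together across libraries. Sham 5 was the lowest sham library for 9 of 10 members, the exception being Tlr3, and sham 4 was the highest sham library for 7. In the pMCAO group, pMCAO 4 was the highest library for 6 members and pMCAO 5 the lowest for 7. The summed level of macrophage markers was likewise lowest in sham 5 (2891 CPM) and pMCAO 5 (4149 CPM) of their groups, against 4803 to 7726 CPM in the other sham and 5662 to 8972 CPM in the other pMCAO libraries. None of the 10 macrophage markers was called between groups, and the part of macrophage RNA content in the levels of the receptors was not tested.

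After removal of group means, 44 of the 45 pairs of members had a positive Pearson correlation of log2 CPM over 10 libraries, with a median r of 0.58. By exact enumeration of the 14400 assignments within groups, 8 pairs passed an adjusted p of 0.05 over 45 pairs. These included Tlr4 with Tlr7 (r = 0.91, rho = 0.94, exact permutation p = 6.94e-05, the smallest that enumeration can give, adjusted p = 0.00312), which had the smallest p. Tlr4 with Tlr8 had the highest coefficient (r = 0.97, rho = 0.96, exact permutation p = 0.000556, adjusted p = 0.00833). The other pairs were Tlr8 with Tlr13, Tlr6 with Tlr13, Tlr4 with Tlr13, Tlr7 with Tlr8, Tlr3 with Tlr9 and Tlr5 with Tlr7. For rho, 4 of these 8 pairs passed as well. After leaving out the 2 libraries farthest from the median of the first gene, all 8 pairs stayed positive, with r of 0.596 (Tlr7 with Tlr8) to 0.956 (Tlr8 with Tlr13). None of the 45 pairs passed the adjusted limit then. Fewer libraries and fewer assignments within groups remained, so how far the relations rest on those libraries is not settled. All points of a pair share their library, its depth and its mix of cells.

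Tlr3 and Tlr9 kept apart from the joint pattern of most other receptors in sham 4. There Tlr7, Tlr4 and Tlr6 were the highest of the sham group, while Tlr3 was the lowest and Tlr9 next to the lowest. Tlr2 was not the highest in sham 4 either, at 35.0 CPM against 66.4 CPM in sham 2. The correlation of Tlr3 with Tlr9 was r = 0.74 and rho = 0.83 (exact permutation p = 0.00229 for r, adjusted p = 0.0147). For rho the adjusted p was 0.055 by the exact permutation test.

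**Figure D4:**
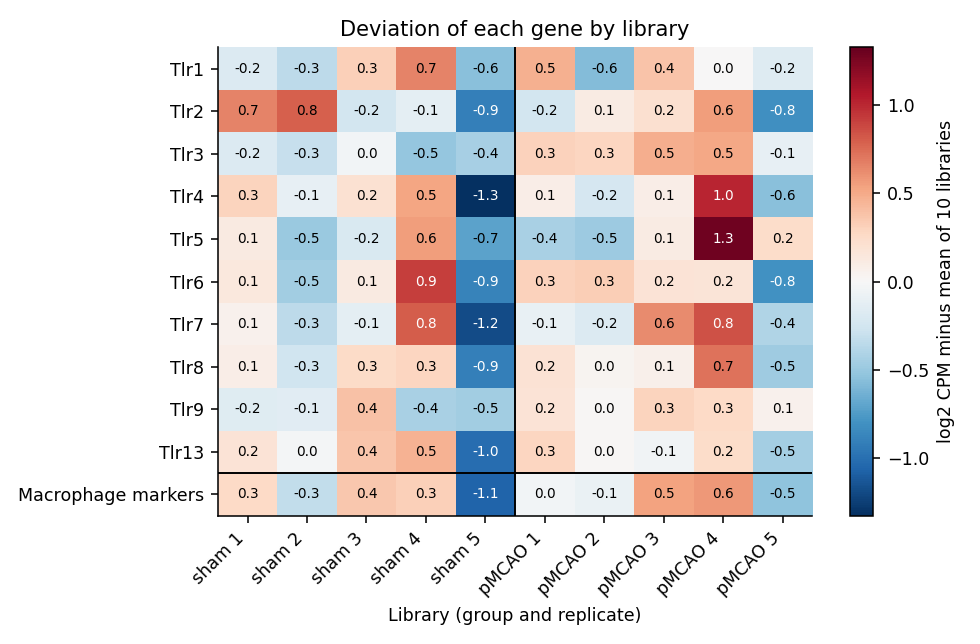
Deviation of each Toll-like receptor gene, and of the sum of 10 macrophage markers, in each library from the mean over 10 libraries, in log2 CPM. Blue is below and red above the mean; sham 5 lies below the mean for all 10 genes and for the marker sum, and Tlr3 is above the mean in pMCAO 1 to 4.

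For each member, the gene with the most similar profile over the 10 libraries was sought among 9045 genes with a mean of at least 10 CPM. Group means were not removed here, so a difference between groups that both genes share can add to r. The closest pair was Tlr3 with Scarb2, a lysosomal membrane protein (r = 0.985), followed by Tlr7 with Ulk2 (r = 0.981) and Tlr8 with B3galnt1 (r = 0.978). Tlr4 was most like Adgre1, which encodes the macrophage marker F4/80 (r = 0.970), and Tlr13 was most like Entpd1 (r = 0.968). For the remaining members these were Ampd3 for Tlr5 (r = 0.958), Mmp13 for Tlr6 (r = 0.953), Gbp9 for Tlr1 (r = 0.950), Slc35b4 for Tlr9 (r = 0.950) and Ggh for Tlr2 (r = 0.929). Each is the highest of many coefficients over 10 libraries and is given as a description only.

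The partners of the receptors were examined by role in 72 pathway genes, of which 71 were listed and 70 tested. Ifnb1 had no row in the table and Nos2 stayed below the filter. None of the 70 was called (0%), and 3 of the 70 had an unadjusted p under 0.05, Lbp, Irf7 and Nfkb2, all lower after pMCAO. Of all genes tested, 4.71% were under this limit in either direction and 2.45% in the lower direction.

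Among 6 co-receptors and ligand carriers, 4 had a log2 fold change above 0 and the median was 0.07. Without sham 5 and pMCAO 4, only 1 of these 6 was above 0 and the median was -0.26. Cd14 and Ly96, which hand lipopolysaccharide to TLR4 and form the receptor complex with it, had log2 fold changes of -0.49 (SE 0.49) and 0.10 (SE 0.32). Lbp, the lipopolysaccharide-binding protein of plasma, was at 0.56, 0.68, 1.07, 15.7 and 1.69 CPM in sham 1 to 5 and at 0.73, 1.05, 0, 0.33 and 0.23 CPM in pMCAO 1 to 5. Its high value was that of sham 4 alone. The log2 fold change of Lbp was -3.04 (SE 1.14, edgeR unadjusted p = 0.0206, FDR = 0.922), and without sham replicate 4 it was -1.09 with an edgeR unadjusted p of 0.253.

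Of 7 chaperones and trafficking genes, 3 were above 0 and the median was -0.01. Unc93b1, which carries the endosomal receptors out of the endoplasmic reticulum, was at 458 ± 168 CPM in sham and 429 ± 119 CPM in pMCAO libraries (SD, n = 5), a log2 fold change of -0.09 (SE 0.27). Tmed7 (0.44, SE 0.21, edgeR unadjusted p = 0.061, FDR = 0.922) and Cnpy3, a folding factor for these receptors (-0.24, SE 0.24), had the smallest p of this list. The 6 endosomal nucleases and receptor-processing proteases all had log2 fold changes above 0, with a median of 0.09 and the largest for Pld3 (0.26, SE 0.27). The SE was larger than the fold change of each of these 6 genes. Ctsb, a cathepsin, had a log2 fold change of 0.15 (SE 0.28). Only 1 of the 6 genes of this list was above 0 without the 2 libraries with high Xist, and the median was then -0.12. Over the alternatives 1 to 6 of the 6 were above 0.

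Of the 6 adaptors, 3 were above 0 and the median was -0.02. Myd88 was at 46.7, 54.2, 45.4, 48.0 and 38.3 CPM in sham 1 to 5 and at 41.8, 33.6, 44.4, 28.1 and 35.9 CPM in pMCAO 1 to 5. All 5 pMCAO libraries lay below the sham mean of 46.5 CPM, with a log2 fold change of -0.34 (SE 0.17, edgeR unadjusted p = 0.0657, FDR = 0.922). Ticam1, the adaptor through which TLR3 signals, was at 17.0 ± 6.23 CPM in sham and 22.2 ± 7.42 CPM in pMCAO libraries (SD, n = 5), a log2 fold change of 0.39 (SE 0.32). All 14 kinases and ubiquitin ligases had log2 fold changes above 0, with a median of 0.08 and none above 0.25. Over the alternatives 9 to 14 of the 14 were above 0. Ikbkg (0.25, SE 0.21) and Traf6 (0.24, SE 0.17) had the smallest p among them.

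Of the 8 transcription factors, 4 were above 0 and the median was 0.03. Irf7, an interferon regulatory factor activated by endosomal receptors, was at 36.4, 48.0, 44.1, 42.7 and 42.7 CPM in sham 1 to 5 and at 23.4, 25.6, 41.5, 27.6 and 28.0 CPM in pMCAO 1 to 5. Thus 4 of 5 pMCAO libraries lay below every sham library, and pMCAO 3 was within the sham range. Irf7 had a log2 fold change of -0.55 (SE 0.18) with an unadjusted p of 0.0103 and an FDR of 0.922 in the edgeR test, and its p was under 0.05 in all 21 alternatives, with log2 fold changes of -0.71 to -0.48. Nfkb2, an NF-κB subunit, was at 32.2 ± 6.03 CPM in sham and 24.2 ± 3.77 CPM in pMCAO libraries (SD, n = 5). Its log2 fold change was -0.41 (SE 0.19, edgeR unadjusted p = 0.046, FDR = 0.922), and the p was under 0.05 in 8 of 21 alternatives.

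Of 9 inhibitors of the pathway, 5 were above 0 and the median was 0.00445. Nrros, which restrains receptor signalling (-0.33, SE 0.20, edgeR FDR = 0.922), and the ubiquitin ligase gene Rnf216 (0.22, SE 0.17, edgeR FDR = 0.922) had the smallest p. Inducible targets, which are cytokine, chemokine and enzyme genes transcribed after receptor engagement, were below 0 for 12 of 14 genes tested, with a median log2 fold change of -0.59 and none under an unadjusted p of 0.05. Cxcl10 was at 48.3, 66.9, 82.1, 135 and 40.1 CPM in sham 1 to 5 and at 56.3, 39.5, 66.3, 27.1 and 16.9 CPM in pMCAO 1 to 5. All 5 pMCAO libraries lay below the sham mean, with a log2 fold change of -0.86 (SE 0.40, edgeR unadjusted p = 0.0511, FDR = 0.922). Il10, an anti-inflammatory cytokine gene, had a log2 fold change of -1.19 (SE 0.66, edgeR unadjusted p = 0.0943, FDR = 0.922), with 123 CPM in sham 4 and 5.1 to 59.7 CPM in the other sham libraries. Without sham replicate 4, which held the highest Il10 and Cxcl10 levels, the median of the list was -0.11, with 9 of 15 genes tested below 0, and over all alternatives it was -0.99 to -0.11.

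**Figure D5:**
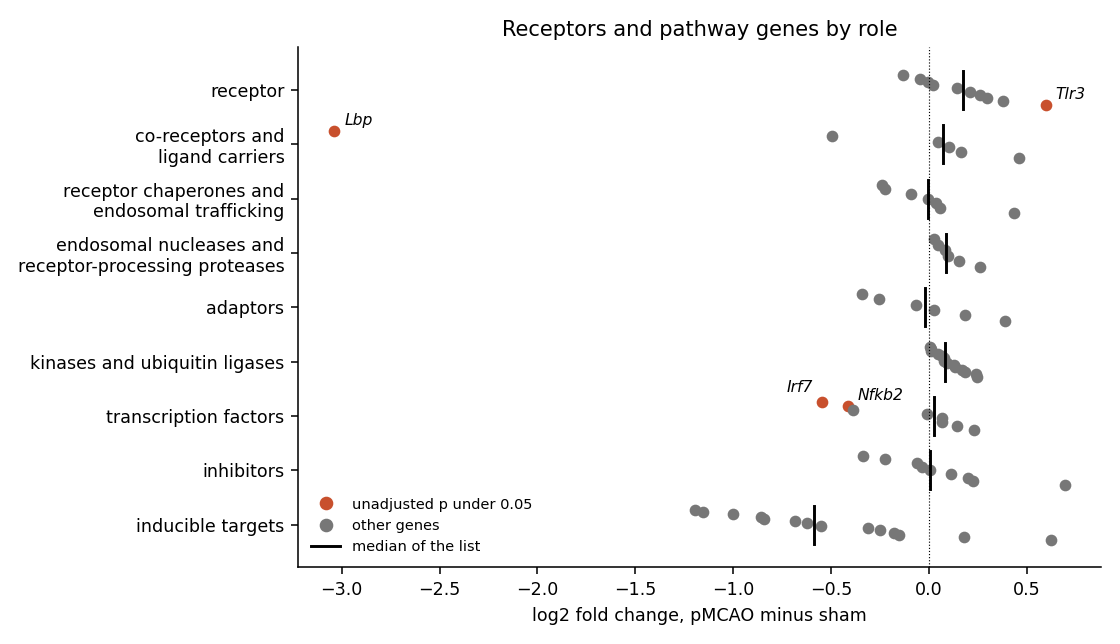
Log2 fold change of pMCAO over sham for the receptors and 70 pathway genes, arranged by role. Each point is 1 gene, black bars are list medians and red points had an unadjusted p under 0.05 in the edgeR test; Tlr3 is the red point above 0, and Lbp, Irf7 and Nfkb2 are those below.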

How the data were processed

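RNA from sorted macrophages (2 ng per library, ribosomal RNA removed by cleavage) was sequenced as paired reads of 100 bases. Raw gene counts were deposited by the authors as whole numbers, with their own CPM values, in which these counts are scaled to library totals; the CPM values served only to check the scaling. The submitters' processing notes name STAR, featureCounts, limma and GRCm38 without versions. Columns of fold changes, mean expression, p-values and FDR were not used.

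Genes were filtered with filterByExpr (16949 of 17279 kept), scaled by TMM and tested with the quasi-likelihood method (edgeR 4.0.16, R 4.3.3), with Benjamini-Hochberg adjustment over all genes tested and no covariate. Alternatives were DESeq2 1.42.0, limma-voom (limma 3.58.1), other scalings and filters, a replicate block and left-out libraries. Scaling to total counts was added after the data were seen. Correlations used log2 CPM with a prior count of 2. Group means were removed for pairs of members but not in the search for the most similar profiles. For the pairs, exact enumeration replaced the planned random permutations. Levels per length used GENCODE M21 transcripts, with a prior count of 0.5 for the order.

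The members and lists were chosen with earlier results of these data known. Named pathway genes are, in each list, the 2 with the lowest unadjusted p, every gene with a p under 0.05, and Myd88, Ticam1, Unc93b1, Cd14 and Ly96. No library repeated another: the lowest chi-square per degree of freedom over 45 pairs was 42.7. The test was checked on simulated counts with known changes. At an FDR of at most 0.05 it found 8 of 85 genes changed by 1 log2 unit (9.41%) and 51 of 106 changed by 2 (48.1%). Of 16282 unchanged genes, 3 passed. Most changes of the smaller size were therefore missed.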

Additional observations from a re-analysis of the deposited data

Results flagged for a closer look

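A library stood apart where the distance to its closest neighbour in the group, as a share of the range of the 5 libraries, exceeded Dixon's limit of 0.71. Distances and ranges were taken on a log2 scale, so the ratios below do not follow directly from the CPM printed beside them. This was so in 4 of 74 groups of values, against 3.7 by chance, and in 1 of 20 groups of receptor values.

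Tlr6 was low in pMCAO 5, at 11.8 CPM against 23.2 to 26.0 CPM in the other pMCAO libraries (ratio 0.855). Ly96, the partner of TLR4, was low in sham 5, at 18.4 CPM against 42.8 to 59.8 CPM in the other sham libraries (ratio 0.713). Lbp was high in sham 4, at 15.7 CPM against 0.56 to 1.69 CPM in the other sham libraries (ratio 0.733). Nrros was high in pMCAO 3, at 195 CPM against 108 to 124 CPM in the other pMCAO libraries (ratio 0.768).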

How the results depend on the processing

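No member and no pathway gene was called under any of the 21 alternatives. DESeq2 called 2 of all genes and edgeR and limma 0 under every other alternative. The count of members with an unadjusted p under 0.05 was 1 throughout, except 2 without sham replicate 3, and was 1 to 2 when a library was left out. For pathway genes the count was 3 with all libraries, 7 with sample quality weights and 2 to 9 when a library was left out, with 7 without sham replicate 5 and 9 without pMCAO replicate 3.

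Tlr3 and Tlr9 did not change sign under any alternative. Tlr6, at -0.0040 with all libraries, changed sign with DESeq2 (0.018), limma-voom (0.10), quality weights (0.065), RLE size factors (0.017), upper-quartile factors (0.018), a filter of more than 1 CPM in 5 libraries (0.0049) and scaling to total counts (0.049). Tlr13 changed sign with limma-voom (0.0040), quality weights (0.0091) and scaling to total counts (0.011). Without both pools, log2 fold changes were -0.15 for Tlr1 and 0.087 for Tlr2. Without sham 5 and pMCAO 4 they were -0.084 for Tlr1, -0.38 for Tlr4, -0.15 for Tlr5, -0.13 for Tlr7, -0.13 for Tlr8, -0.13 for Ctsb and -0.14 for Ly96. With quality weights Ly96 was at -0.11 and Pld3 at -0.037. When 1 library was left out, log2 fold changes ranged from -0.10 to 0.22 for Tlr1, -0.32 to 0.079 for Tlr2, -0.18 to 0.28 for Tlr4, -0.032 to 0.58 for Tlr5, -0.18 to 0.29 for Tlr6, -0.23 to 0.055 for Tlr13, -0.0021 to 0.27 for Ctsb, -0.096 to 0.27 for Ly96, -0.11 to 0.39 for Pld3 and -0.27 to 0.099 for Unc93b1. The cause was not tested.

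Replicate numbers are shared by both groups. After removal of group means, libraries of the same number correlated at -0.0055 to 0.37 (mean 0.20), and 5 of 10 correlated best with their own number. The lowest FDR over all genes was 0.173 in the edgeR test with a replicate block and 0.922 without it. With the replicate block 0 genes were called, 1303 had an unadjusted p under 0.05 against 799 without it, and Tlr3 was the 1 member among them. The replicate block gave 0.073 for Tlr6 and 0.013 for Tlr13.

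The order by level per length kept 6 of 9 neighbouring pairs with mean transcript lengths, 8 with coding lengths, 8 with medians and 8 in sham libraries alone. Without the 2 libraries farthest from the median, 0 of the 8 correlated pairs passed, with fewer assignments left, so their stability is not settled. The median SE of the log2 fold change was 0.296 for the members and 0.366 for all genes, which limits the changes that 5 libraries a group can show.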
